A study of Mus musculus with 6 samples.

Results

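The genes described here are the core of the stress response that runs through the transcription factors ATF4 and CHOP. They are the 8 genes Atf4, Atf5, Ddit3, Trib3, Chac1, Asns, Nupr1 and Cebpb, taken by symbol from the 38720 rows of the deposited expression table, and all 8 were found there. The study compared the stomach of wild-type mice (CLDN18+/+) with that of CLDN18-/- mice, which lack Cldn18, the gene of a tight junction protein of the gastric epithelium. Both groups were of the B6:129S5 strain and had 3 libraries each; the labels name no treatment. The neck region of the corpus glands was cut from unfixed frozen sections by laser capture microdissection before RNA was sequenced. The sample labels give an age of 7 weeks for both groups, whereas the series text says 7 days, so the age is uncertain. Neither the number of animals behind a library nor the deleted part of Cldn18 is given in the sources used here, so the p-values speak only for the spread among these libraries, which could be technical.

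Cells under stress phosphorylate the translation initiation factor eIF2 on its alpha subunit, which slows protein synthesis as a whole while the mRNA of Atf4 is translated more. ATF4 then switches on genes for amino acid synthesis, amino acid uptake and tRNA charging, and also Ddit3, the gene of the transcription factor CHOP. Because ATF4 is set mainly at the level of translation, its mRNA is only one readout of the response, and the genes it switches on are the usual other one. Gastric glands hold secretory cells with a dense endoplasmic reticulum, where unfolded proteins can start this response.

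ATF4 binds promoters together with C/EBP proteins at a composite site, the C/EBP-ATF response element. The promoters of the 8 genes were searched for it with the letters TGATGNAAN on both strands, from 250 bases before to 50 bases after the gene start (RefSeq, GRCm38.p6). A match was present for 4 of the 8 genes, and 4.5% of the 27025 genes in the promoter table have one. The upstream stretches of Asns, Chac1 and Nupr1 are printed 5′ to 3′ on the strand of the gene, with the match in capitals. These genes share the letters, while Asns was called higher in the knockout, Nupr1 lower and Chac1 neither.
Asns, chr6:7693210-7693252, minus strand: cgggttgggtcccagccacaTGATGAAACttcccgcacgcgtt
Chac1, chr2:119351028-119351076, plus strand: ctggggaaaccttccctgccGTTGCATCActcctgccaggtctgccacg
Nupr1, chr7:126625553-126625601, minus strand: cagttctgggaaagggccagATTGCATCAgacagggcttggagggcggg
The match began 23 bases upstream of the RefSeq start of Asns, on the gene's own strand. The matches of Chac1 and Nupr1 lay on the opposite strand and began 194 and 111 bases upstream of their RefSeq starts. The gene spans given below come from another annotation, GENCODE. The printed stretches of Asns and Nupr1 lie inside those spans, so they are upstream only of the RefSeq starts. In Trib3 the match, TTTACATCA on the opposite strand, lay 13 bases past the start. Atf4, Atf5, Ddit3 and Cebpb had no match in their windows. None of the 8 windows held the cyclic AMP response element TGACGTCA (2.03% of genes), the C/EBP palindrome TTGCGCAA (0.207%) or the endoplasmic reticulum stress element, CCAAT and CCACG with 9 bases between them (0.137%). None of these motifs contains another. A match is a description of the letters and not of binding.

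Between 37673283 and 52842813 reads per library fell on genes. Gm26924 took the largest share of them, 38.6% to 45.4% in wild-type tissue and 40.7% to 41.1% in the knockout. The depth left for other genes was therefore well below these totals. Cldn18 was lower in the knockout without overlap, with 30498, 21210 and 23241 normalized counts in wild-type tissue and 13035, 16798 and 15818 in knockout tissue (log2 difference -0.71 ± 0.20 SE, limma adjusted p = 0.0134). The call was lost without knockout replicate 1 (log2 difference -0.60, limma adjusted p = 0.0882). Since the transcript was still read, it checks only the direction of the labels. Wild-type replicate 2 stood apart from the other libraries, with 1.10% of its reads on processed pseudogenes and a summed level of 5883 for 9 stratified squamous markers. The corresponding values were 0.110% to 0.549% and 420 to 2189 in the other 5 libraries. In the knockout all 14 parietal cell markers were lower, their sum being 490317 to 640272 normalized counts in wild-type tissue and 32782 to 38347 in the knockout. Of 8 chief cell markers 6 were lower, with sums of 1813710 to 3013020 and 42768 to 75848. No marker of either list was at 0 throughout a group. Mucous neck cell markers were higher for 4 of 6 and lower for 1 (sums of 86643 to 112450 and 105576 to 204136). Of 7 surface pit cell markers 2 were higher (28.6%) and 3 lower (42.9%). Their summed level did not overlap, at 885223 to 1500200 in the wild-type libraries and 342990 to 589025 in the knockout. The shares to set beside each marker list are those of all genes tested, 23.3% higher and 21.5% lower. Endothelial markers were lower in 5 of 6 tested (sums of 3675 to 6020 and 1452 to 2015). The summed levels of parietal, chief, surface pit and endothelial markers moved with the genotype without overlap, and so with each difference reported below. Sums overlapped for mucous neck, immune, pancreatic acinar, and fibroblast and smooth muscle markers. Of 7 immune markers tested 2 were higher and 0 lower. Of 10 fibroblast and smooth muscle markers 3 were higher and 3 lower, and of 4 pancreatic acinar markers tested 1 was higher and 0 lower. The part of any cell type in the differences below was not tested. In tissue RNA, fewer cells of a type and less RNA per cell cannot be told apart.

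The stress genes did not move as a block. Trib3, Cebpb and Asns rose in the knockout, Nupr1 and Ddit3 fell, and Atf4, Atf5 and Chac1 did not pass the test (limma on log2(normalized count + 1), called at an adjusted p under 0.05). This makes 5 of 8 called, where 44.7% of the 17432 genes tested were called. Of the 8, 3 were higher, where 23.3% of all genes were, and 2 lower, where 21.5% were. The groups did not overlap for the same 5 genes, and for 55.2% of all genes tested (knockout above for 28.1%, below for 27.1%). The median log2 difference of the 8 was 0.24, against -0.02 for all genes. edgeR on recovered reads made the same calls for these genes, and called 24.8% of all genes higher and 21.4% lower. Without wild-type replicates 2 and 3, Trib3 and Cebpb remained higher and Nupr1 and Ddit3 lower, and Asns lost its call (log2 difference 0.37, limma adjusted p = 0.0808). That fit holds 1 wild-type library, assumed to vary like the knockout libraries.

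**Figure D1:**
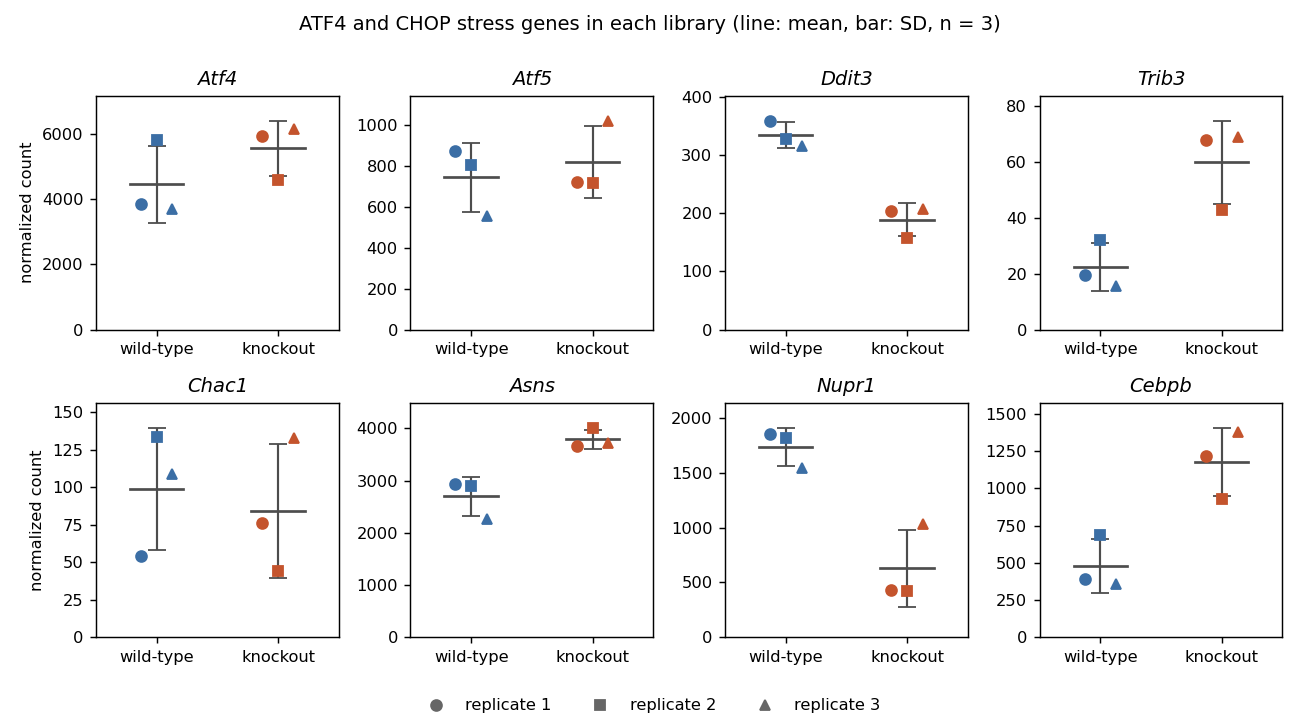
Normalized counts of the 8 stress genes in each wild-type (blue) and knockout (orange) library; each axis starts at 0, marker shapes give the replicate number, and lines and bars give the mean and SD of 3 libraries. Ddit3 and Nupr1 lie lower and Trib3, Asns and Cebpb higher in all 3 knockout libraries, while Atf4, Atf5 and Chac1 overlap.

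Atf4 itself (ENSMUSG00000042406.8, chromosome 15, 80255184 to 80257541, plus strand, mm10) encodes the transcription factor at the head of the response. It had 3851, 5808 and 3705 normalized counts in wild-type replicates 1, 2 and 3, and 5932, 4594 and 6157 in the knockout. The groups overlapped: wild-type replicate 2 was above knockout replicate 2. The log2 difference was 0.34 ± 0.20 (SE; 95% interval -0.09 to 0.77, limma adjusted p = 0.186). Without wild-type replicate 2 it was 0.55 and passed the test (limma adjusted p = 0.0181), and without wild-type replicates 2 and 3 it was 0.52 and did not (limma adjusted p = 0.0617). That library also had the high pseudogene share and squamous marker sum given above, whose part in its Atf4 level was not tested.

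Atf5 (ENSMUSG00000038539.15, chromosome 7, 44812256 to 44816658, minus strand), a relative of Atf4 that is also translated under stress and is linked to the mitochondrial stress response, gave no call. It had 874, 804 and 555 normalized counts in wild-type tissue and 720, 718 and 1021 in the knockout. Wild-type replicates 1 and 2 lay above knockout replicates 1 and 2, so the groups overlapped. The log2 difference was 0.14 ± 0.21 (SE; 95% interval -0.32 to 0.61, limma adjusted p = 0.61). Of its exonic bases 4.11% are shared with Nup62, on the other strand, which rose in knockout tissue (log2 difference 1.39 ± 0.14 SE, limma adjusted p = 3.92e-05). Il4i1, also on the other strand, shares 4.11% of the exonic bases of Atf5 as well. Counting by strand is not stated, so reads of the shared bases cannot be assigned.

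Ddit3, which encodes CHOP, the factor that turns a lasting stress response toward cell death, fell. This gene (ENSMUSG00000025408.15, chromosome 10, 127290774 to 127296288, plus strand) had 359, 327 and 316 normalized counts in wild-type tissue and 203, 157 and 207 in the knockout. Each knockout value lay below each wild-type value, and the spread within either group was small. Relative to wild-type, the log2 difference was -0.83 ± 0.20 (SE, limma adjusted p = 0.00719), and the wild-type level was 1.78-fold the knockout level. Ddit3 shares 3.97% of its exonic bases with Mars, the methionyl-tRNA synthetase gene on the other strand. Mars was not called by limma (log2 difference 0.35 ± 0.15 SE, limma adjusted p = 0.0752) and was called higher by edgeR (0.38, adjusted p = 0.0336). Ddit3 shares 0.759% with Gm4189, also on the other strand. The annotation also holds another protein-coding Ddit3 model that overlaps this one on the same strand. How reads in both models were counted is not stated. The call of Ddit3 held with each library left out, at log2 differences of -0.90 to -0.70.

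Nupr1 had the largest decrease of the 8. It encodes a small stress-induced nuclear protein that works with ATF4 and CHOP. The gene (ENSMUSG00000030717.9, chromosome 7, 126623249 to 126630861, minus strand) had 1850, 1819 and 1541 normalized counts in wild-type tissue and 431, 423 and 1031 in the knockout. Knockout replicate 3 stood well above the other knockout libraries and still below each wild-type library. In log2 terms the difference was -1.59 ± 0.30 (SE, limma adjusted p = 0.00151), a wild-type level 3.02-fold that of the knockout. With 1 library left out it ranged from -2.02 to -1.38, the largest fall being without knockout replicate 3, and the call held each time. The summed parietal, chief, surface pit and endothelial markers given above were lower in the same libraries. Their part in the falls of Ddit3 and Nupr1 was not tested.

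Trib3, a pseudokinase gene that ATF4 and CHOP switch on and whose product restrains ATF4, moved the other way. It is located on chromosome 2, 152337422 to 152344032, minus strand (ENSMUSG00000032715.9). Its level was low, with 19.6, 32.1 and 15.5 normalized counts in wild-type (16, 26 and 16 reads) and 68.0, 42.8 and 69.2 in the knockout (72, 58 and 72 reads). All 3 knockout libraries were higher, knockout replicate 2 being nearest to wild-type. On the log2 scale the difference was 1.41 ± 0.44 (SE, limma adjusted p = 0.0242), or 2.66-fold. Its call was lost without wild-type replicate 3 (1.19, limma adjusted p = 0.0704), without knockout replicate 1 (1.31, limma adjusted p = 0.0955) and without knockout replicate 3 (1.29, limma adjusted p = 0.0914). It was lost as well with no filter on low values (1.41, limma adjusted p = 0.051) and in the authors' deposited table (log2 of the fold 1.42, adjusted p = 0.0637).

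Cebpb, which encodes the C/EBP protein that pairs with ATF4 and CHOP and also acts in inflammation and growth, rose. The gene (ENSMUSG00000056501.3, chromosome 2, 167688915 to 167690418, plus strand) had 390, 688 and 357 normalized counts in wild-type tissue and 1221, 932 and 1380 in the knockout. The knockout libraries were all higher, and wild-type replicate 2 was the highest of its group. This is a log2 difference of 1.34 ± 0.25 (SE, limma adjusted p = 0.00153), or 2.54-fold. The call held with each library left out (1.16 to 1.64). Cebpb shares 20.7% of its exonic bases with Tmem189, on the other strand, which was not called (log2 difference 0.28 ± 0.20 SE, limma adjusted p = 0.265).

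Asns, which encodes asparagine synthetase and is a classic target of ATF4 when amino acids are short, rose by a small amount. At its locus (ENSMUSG00000029752.12, chromosome 6, 7675169 to 7693254, minus strand) 2943, 2890 and 2273 normalized counts were found in wild-type tissue and 3668, 4004 and 3719 in the knockout. The groups did not overlap, and wild-type replicate 3 was the lowest library. It amounts to a log2 difference of 0.50 ± 0.14 (SE, limma adjusted p = 0.0157), or 1.41-fold. The call was lost without wild-type replicate 3 (0.38, limma adjusted p = 0.0539) and without knockout replicate 2 (0.46, limma adjusted p = 0.06). It was lost too without the mean trend (0.50, limma adjusted p = 0.0554) and in the authors' deposited table (log2 of the fold 0.49, adjusted p = 0.0856).

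Chac1, a target of ATF4 and CHOP whose product breaks down glutathione, varied widely inside both groups. At ENSMUSG00000027313.3 (chromosome 2, 119351229 to 119354381, plus strand) there were 53.9, 133 and 109 normalized counts in wild-type tissue and 76.5, 44.3 and 133 in the knockout. Knockout replicate 2 was the lowest library, wild-type replicate 2 and knockout replicate 3 were the highest, and the ranges overlapped almost fully. The log2 difference was -0.26 ± 0.46 (SE; 95% interval -1.28 to 0.76, limma adjusted p = 0.675). With an interval this wide, these libraries set no tight limit on a change of Chac1.

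**Figure D2:**
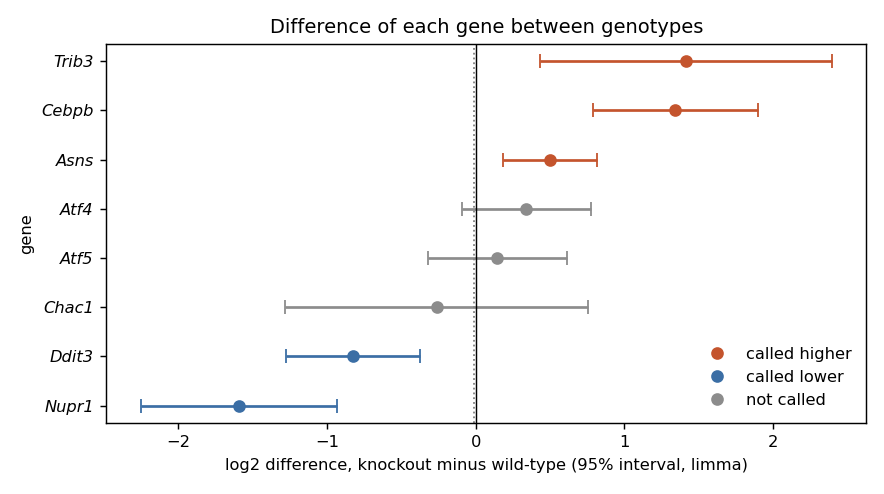
Log2 difference of each stress gene, knockout minus wild-type, with its 95% interval from limma over 3 libraries a group; orange is called higher, blue called lower, grey not called, and the dotted line is the median of all genes tested. The points run from -1.59 for Nupr1 to 1.41 for Trib3, and the intervals of Atf4, Atf5 and Chac1 cross 0.

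Set against one another within a library, Trib3 and Ddit3 moved apart. The ratio of Trib3 to Ddit3 normalized counts was 0.0546, 0.0981 and 0.0492 in wild-type tissue and 0.335, 0.274 and 0.335 in the knockout. Ddit3 to Atf4 was 0.0931, 0.0563 and 0.0852 in wild-type tissue and 0.0342, 0.0341 and 0.0336 in the knockout. In both ratios the groups did not overlap, and the knockout libraries agree closely for the second. For Trib3 to Ddit3 the separation was fixed beforehand, since the knockout lay above wild-type throughout for Trib3 and below it for Ddit3. The p of that ratio therefore adds nothing to the results of the 2 genes. Each gave a two-sided exact permutation p of 0.1, the smallest that 3 against 3 allows, and 0.1 after adjustment over the 2 ratios tested. These ratios were picked after the values were seen.

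Per kilobase of exon (all annotated exons of a gene joined), Atf4 was the most abundant of the 8 in both groups, at 1889 ± 498 in wild-type tissue and 2358 ± 358 in the knockout (SD, n = 3). Asns came next in both, at 988 ± 136 and 1388 ± 66.2. In wild-type the order went on with Nupr1 (691 ± 67.6), Atf5 (374 ± 84.0), Cebpb (318 ± 121), Ddit3 (195 ± 13), Chac1 (60.3 ± 24.9) and Trib3 (10.5 ± 4.1). Only Atf5 and Cebpb overlapped among these neighbours. In the knockout the order below Asns was Cebpb (783 ± 151), Atf5 (411 ± 87.4), Nupr1 (250 ± 139), Ddit3 (110 ± 16.3), Chac1 (51.6 ± 27.3) and Trib3 (28.2 ± 7.0). There Atf5 overlapped with Nupr1 and Chac1 with Trib3. The exon length of Nupr1, 2514 bases, includes a long annotated form, which lowers its value on this scale. Its place in both orders, and so the ranks of Atf4 and Asns above it, hold only for this length. On this scale the order changed chiefly in that Cebpb moved above Atf5 and Nupr1 moved below both.

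Across the 6 libraries Trib3 and Cebpb ran closest together among the 8 (Pearson r = 0.993 on the log2 scale, n = 6), followed by Ddit3 and Nupr1 (r = 0.919). Atf4 had r = 0.876 with Trib3 and 0.875 with Cebpb, but -0.42 with Ddit3. These are descriptions over libraries that share the genotype difference. Among 11778 other genes with a mean of at least 100, Ubqln4 (r = 0.991) and Eif1 (r = 0.991) were among the patterns most like Atf4. Those most like Ddit3 were Rgcc (r = 0.998), Rhot1 (r = 0.997) and Tmem38a (r = 0.996). Knockout replicate 2 held the lowest knockout value for 7 of the 8 genes, Asns being the exception.

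Upstream of ATF4, the eIF2 system held genes that rose and genes that fell. Of 17 genes for the eIF2 alpha kinases, their cofactors, the phosphatase subunits, eIF2 and eIF2B, 7 were higher (41.2%, against 23.3% of all genes), 3 lower (17.6%, against 21.5%) and 7 not called, with a median log2 difference of 0.43; without knockout replicate 2 only 1 was lower. Among the kinases, Eif2ak4, which encodes the amino acid sensor GCN2, fell from 892, 963 and 898 normalized counts in wild-type to 507, 629 and 483 in knockout tissue (log2 difference -0.77 ± 0.16 SE, limma adjusted p = 0.00251). The groups were far apart relative to their spread. Eif2ak3, which encodes PERK, the kinase of the endoplasmic reticulum, stood at 2170, 1835 and 1758 in wild-type tissue and 1424, 1396 and 1582 in the knockout (-0.38 ± 0.14 SE, limma adjusted p = 0.044). Its call was lost when any of wild-type replicate 1 and knockout replicates 1, 2 and 3 was left out, at limma adjusted p = 0.0989, 0.143, 0.127 and 0.0651. It was also lost with no filter on low values (limma adjusted p = 0.089), upper quartile scaling (0.0542), no mean trend (0.0977), the replicate block (0.0935) and in the authors' deposited table (0.306). It held with edgeR and DESeq2. Neither Eif2ak1, for the heme-regulated kinase (-0.12 ± 0.14 SE), nor Eif2ak2, for the RNA-activated kinase PKR (0.25 ± 0.14 SE), was called. The GCN2 cofactor gene Gcn1l1 (0.30 ± 0.13 SE) was not called by limma and was by edgeR (adjusted p = 0.0321).

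The regulatory subunits that bring a phosphatase to eIF2 alpha went in opposite directions. Ppp1r15a, the inducible subunit GADD34 and a target of ATF4 and CHOP, fell from 504, 443 and 288 normalized counts in wild-type to 215, 202 and 250 in knockout tissue (log2 difference -0.85 ± 0.24 SE, limma adjusted p = 0.0135). Its lowest wild-type library, replicate 3, lay just above the highest knockout library, and without knockout replicate 2 the adjusted p was 0.0501 by limma. Ppp1r15b, the constitutive subunit CReP, rose from 4780, 3544 and 3299 to 7822, 7136 and 8200 (1.01 ± 0.16 SE, limma adjusted p = 0.00068). Its groups were well separated.

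**Figure D3:**
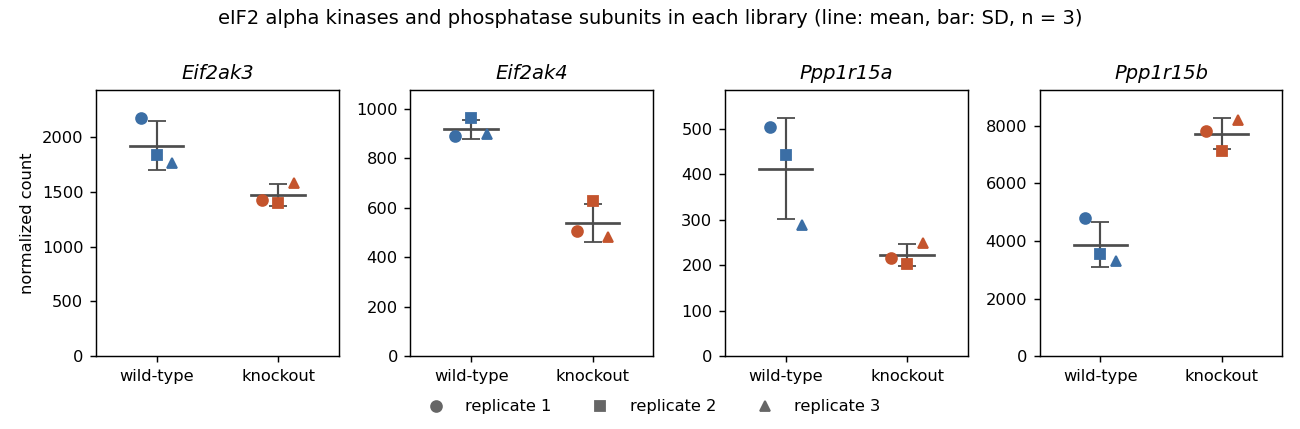
Normalized counts of the kinase genes Eif2ak3 and Eif2ak4 and the phosphatase subunit genes Ppp1r15a and Ppp1r15b in each wild-type (blue) and knockout (orange) library; axes start at 0, shapes give the replicate number, lines and bars the mean and SD of 3 libraries. The 3 knockout values lie below wild-type for the first 3 genes and above it for Ppp1r15b.

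The targets of the phosphorylation and their exchange factor rose in part. All 3 eIF2 subunit genes were higher: Eif2s1, the alpha subunit that carries the phosphorylation, by 1.18 ± 0.12, Eif2s2 by 0.67 ± 0.15 and Eif2s3x by 0.81 ± 0.14 (log2 difference ± SE). Of the eIF2B genes, Eif2b1 (1.29 ± 0.14 SE) and Eif2b5 (0.72 ± 0.15 SE) were higher. Eif2b2 (0.13 ± 0.16 SE), Eif2b3 (0.43 ± 0.24 SE) and Eif2b4 (0.15 ± 0.14 SE) were not called, nor was Impact, a restraint on GCN2 (0.56 ± 0.26 SE). Without wild-type replicate 2, Eif2b3 was called higher (0.66, limma adjusted p = 0.026), and without wild-type replicate 1, Impact was (0.72, limma adjusted p = 0.0454). Dnajc3, which encodes an inhibitor of PERK, rose by 0.76 ± 0.18. Without wild-type replicates 2 and 3 it was not called (0.45, limma adjusted p = 0.077).

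Genes that ATF4 controls in amino acid and one-carbon metabolism split into groups that rose and fell by large amounts. Of 23 genes, 15 were higher (65.2%, against 23.3% of all genes), 6 were lower (26.1%, against 21.5%), and Slc3a2 and Slc7a3 were not called. The counts were the same with edgeR and without wild-type replicates 2 and 3. The median log2 difference was 1.0. All 3 serine synthesis genes of the list were among those that rose. Psat1, for the middle step, went from 406, 373 and 414 normalized counts in wild-type to 3107, 2973 and 3534 in the knockout (3.0 ± 0.14 SE, limma adjusted p = 1.88e-07). Phgdh, which encodes the first enzyme of that pathway, went from 170, 167 and 126 to 968, 942 and 975 (2.64 ± 0.18 SE). The replicates of either gene differ far less than the groups do. Psph, which encodes the last enzyme, had 164, 285 and 227 in wild-type tissue against 494, 361 and 482 and rose by less (1.0 ± 0.24 SE, limma adjusted p = 0.00637); the difference between these increases was not tested.

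The cystine importer gene Slc7a11 had the largest increase of the list, from 67.3, 87.7 and 117 in wild-type to 2384, 1644 and 4373 in the knockout (4.85 ± 0.33 SE, limma adjusted p = 2.26e-06). All 3 knockout libraries were far above wild-type, and they differed among themselves more than those of Psat1 did. Mthfd1l, a mitochondrial folate enzyme gene, rose by 2.16 ± 0.18. Slc3a2, the partner chain of Slc7a11 and Slc7a5, had 2954, 2625 and 2351 in wild-type tissue and 2601, 1884 and 2734 in the knockout (95% interval of the log2 difference -0.52 to 0.23). Among the genes that fell, the mitochondrial alanine transaminase gene Gpt2 went from 10133, 8065 and 7159 to 684, 723 and 693 (-3.58 ± 0.15 SE, limma adjusted p = 1.1e-07). Cbs (-3.45 ± 0.40 SE), a gene of the route from homocysteine to cysteine, Aldh1l2 (-3.27 ± 0.31 SE), a mitochondrial folate enzyme gene, and Pycr1 (-2.09 ± 0.26 SE), a proline synthesis gene, were lower as well. Mitochondrial transcripts took 3.28% to 4.28% of reads in wild-type tissue and 1.25% to 1.56% in the knockout, and the part of that difference in these decreases was not tested.

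Cytosolic aminoacyl-tRNA synthetase genes, which load amino acids onto tRNAs, rose in 11 of 20 cases (55.0%, against 23.3% of all genes) with none lower (21.5% of all genes), and their median log2 difference was 0.49. The point estimate was above 0 for all 20, in part by as little as 0.09 ± 0.15 (SE) for Yars. Wars, for tryptophan, went from 3476, 2816 and 2515 normalized counts to 6929, 6048 and 8406 (1.28 ± 0.17 SE, limma adjusted p = 0.000199). Vars rose by 1.25 ± 0.13, Cars by 1.22 ± 0.15 and Nars by 1.13 ± 0.15 (log2 difference ± SE). edgeR called 14 higher, where it called 24.8% of all genes higher, and none lower. In the authors' deposited table and without the mean trend 9 were higher. Over all alternatives 4 to 15 were higher, 4 being where a log2 difference of at least 1 was also needed, and none was lower.

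**Figure D4:**
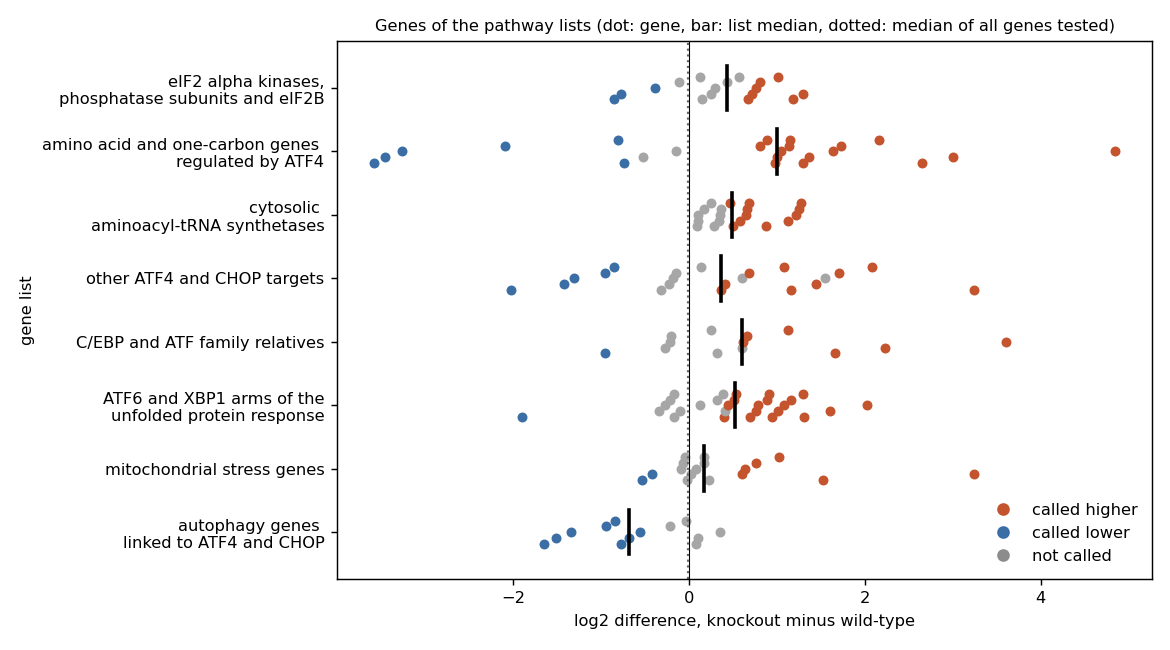
Log2 difference of each tested gene of 8 lists around ATF4 and CHOP (dots; orange called higher, blue called lower, grey not called), with the median of each list as a bar and of all genes tested as a dotted line. Medians run from -0.68 for the autophagy genes to 1.0 for the amino acid and one-carbon genes, which hold both the most positive and the most negative values.

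Of 22 genes listed as other targets of ATF4 and CHOP or relatives of targets 21 were tested, Fgf21 being too low. Of these, 9 were higher (42.9%, against 23.3% of all genes) and 5 lower (23.8%, near the 21.5% of all genes), with a median log2 difference of 0.36. Without knockout replicate 2, 3 were lower. The lists share genes, so their shares are not separate evidence. Ppp1r15a is also in the eIF2 list, Atf3 and Jdp2 among the C/EBP and ATF relatives, and Gdf15 and Fgf21 among the mitochondrial stress genes. Dnajc3 is in the eIF2 list and in that of the ATF6 and XBP1 arms. Trib1, a relative of Trib3, rose from 874, 988 and 682 normalized counts to 3572, 3268 and 3862 (2.09 ± 0.16 SE), whereas Trib2 fell by 1.42 on the log2 scale. Gdf15, a secreted stress hormone gene, stood at 7.34, 1.23 and 1.94 in wild-type tissue and 32.1, 23.6 and 55.7 in the knockout (3.24 ± 0.73 SE, limma adjusted p = 0.00436), a low level in both groups. Tnfrsf10b, the death receptor gene that CHOP switches on, rose from 209, 216 and 276 to 754, 646 and 893 (1.70 ± 0.19 SE, limma adjusted p = 6.82e-05), opposite to Ddit3. Eif4ebp1, which encodes a brake on translation, rose by 1.44 ± 0.27. The lipoprotein receptor gene Vldlr fell by 2.02 and Vegfa fell by 1.31 on the log2 scale.

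Among relatives of the C/EBP and ATF factors, 13 of 16 listed genes were tested (Cebpe, Atf7 and Batf3 were not), and 6 were higher (46.2%, against 23.3% of all genes) and 1 lower (7.69%, against 21.5%). Cebpa, the family member tied to differentiation, rose from 389, 661 and 468 normalized counts to 2399, 2035 and 2540 (2.23 ± 0.20 SE, limma adjusted p = 1.38e-05). Whether its increase differs from that of Cebpb was not tested. Cebpg, whose product pairs with ATF4, rose by 1.13 ± 0.15. Batf2 rose by 3.60 ± 0.33 and Batf by 1.66 ± 0.42, the latter with a call lost without knockout replicate 1 (1.42, limma adjusted p = 0.0507). Atf3, an early stress factor downstream of ATF4, had 141, 477 and 285 in wild-type tissue and 399, 291 and 578 in the knockout. Its groups overlapped and it was not called (0.60 ± 0.40 SE, limma adjusted p = 0.248), but without wild-type replicate 2 it was (1.02, limma adjusted p = 0.0254). The lower gene, Jdp2 (-0.96 ± 0.35 SE, limma adjusted p = 0.0446), was not called by edgeR (adjusted p = 0.0551). Leaving out wild-type replicate 1 or 2 or knockout replicate 1 or 2 also ended its call, at limma adjusted p = 0.0562, 0.137, 0.135 and 0.146.

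Of 28 genes in the other arms of the unfolded protein response, run by ATF6 and XBP1, 17 were higher (60.7%, against 23.3% of all genes). Derl3 was lower (3.57%, against 21.5%) and 10 were not called, with a median log2 difference of 0.53. Without wild-type replicates 2 and 3 the counts were 13 and 2, and 4 were lower after quantile normalization. Hspa5, the main chaperone of the endoplasmic reticulum, went from 19611, 29510 and 18296 normalized counts to 55230, 35455 and 59929 (1.16 ± 0.27 SE, limma adjusted p = 0.00518). Its wild-type replicate 2 was high and its knockout replicate 2 low, as for Atf4, but here the groups stayed apart. Creld2 (2.03 ± 0.25), Sdf2l1 (1.60 ± 0.19), Hyou1 (1.31 ± 0.21) and Manf (1.30 ± 0.19, log2 difference ± SE) were higher. Xbp1 itself had 9693, 8006 and 7126 in wild-type tissue and 6818, 6139 and 7465 in the knockout and was not called (-0.27 ± 0.16 SE, limma adjusted p = 0.19). After quantile normalization it was called lower (-0.48, limma adjusted p = 0.00484), as it was without wild-type replicates 2 and 3 (-0.51, limma adjusted p = 0.0401). Derl3, a degradation factor gene, fell by 1.90 on the log2 scale. Ddit3, a common endpoint of all arms, was lower in the same libraries.

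Mitochondrial stress genes, the setting in which ATF5 is known to act, were higher in 6 and lower in 2 of 17 tested (35.3% and 11.8%, against 23.3% and 21.5% of all genes). The higher genes include Gdf15, which passed the filter on values only through the knockout libraries. Without wild-type replicate 1, or without any 1 of the knockout libraries, 1 was lower. The chaperonin genes Hspd1 (5337 ± 729 to 15318 ± 544 normalized counts, SD, n = 3) and Hspe1 (2680 ± 372 to 5404 ± 222) rose together. They sit side by side and share a promoter. Oma1, which encodes a protease that relays mitochondrial stress to eIF2, rose by 0.76 ± 0.17, a call lost without wild-type replicates 2 and 3 (0.48, limma adjusted p = 0.0621). The protease subunit gene Clpx fell by 0.53 on the log2 scale. Dele1, named 0610009O20Rik in the data, was the other lower gene (-0.42 ± 0.14 SE, limma adjusted p = 0.0302). Its call was lost without wild-type replicate 1 (-0.35, limma adjusted p = 0.0657) and without any 1 of the knockout libraries.

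Autophagy genes linked to ATF4 and CHOP were lower in 8 of 13 cases (61.5%, against 21.5% of all genes). None was higher by limma, 5 were not called (Sqstm1, Atg3, Atg5, Atg16l1 and Becn1), and the median log2 difference was -0.68. At an unadjusted p under 0.05 limma gave Atg16l1 as higher, and edgeR called it. Atg10 (-1.65 ± 0.27 SE) and Wipi1 (-1.52 ± 0.16 SE), both needed to build the autophagosome, were lower. Ulk1, the kinase gene that starts autophagy, went from 2468, 1942 and 1994 normalized counts to 739, 946 and 831 (-1.35 ± 0.16 SE, limma adjusted p = 7.5e-05). Gabarap fell by 0.95 on the log2 scale.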

How the data were processed

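RNA of 3 wild-type and 3 Cldn18 knockout libraries was analysed, grouped by the sample titles. The submitters' processing notes name STAR, featureCounts, DESeq and, as the genome build, mm10. For these tools the sources used here state neither role nor version, and neither annotation nor strandedness. The authors deposited a signal, normalized counts for 38720 rows, 27 of them with a date where the symbol should be. Of these values 100% were whole multiples of one step per library within 0.05 reads, so reads were recovered. Their deposited comparison holds p-values and a ratio (fold change) for 23086 genes and served as an alternative. In R 4.3.3, limma 3.58.1 with eBayes and trend was fitted to log2(normalized count + 1) of the 17432 genes that reached 10 in 3 or more libraries, two-sided, with Benjamini-Hochberg adjustment. Fold changes are on that scale and understate low genes. The fit was also run on simulated data with far fewer changed genes than were called here, so that run does not check these calls.

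Members and lists were chosen with earlier results of these data known. Named genes are the 8 members, the eIF2 list, Atf3, Xbp1, Hspa5, Gdf15, Cebpa, Cldn18, up to 4 called genes per list and direction (some left out for length), and the 3 patterns most like Atf4 and Ddit3, of which 1 is not reported here. Others, named to complete a count or as a partner, were picked after their values were seen. GENCODE vM21 gave coordinates (mm10), RefSeq the promoters, with 8 of 8 members matched. Alternatives changed the pseudocount, filter, scaling, variance model, pairing and libraries, and ran edgeR 4.0.16 and DESeq2 1.42.0 on the recovered reads.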

Additional observations from a re-analysis of the deposited data

How the results depend on the processing

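Over the 20 alternatives Nupr1 and Cebpb kept direction and call in each. Ddit3 kept its call except where calls also needed a log2 difference of 1 or more, a rule that drops smaller changes by its construction and left 1 stress gene lower and 1957 of all genes higher. The count of higher stress genes fell to 1 in the authors' deposited table, where all genes lower numbered 2024; the cause was not tested. With 1 library left out, 1 to 4 stress genes were higher (1 without wild-type replicate 3) and 2 lower, against 3095 to 4369 and 2851 to 3513 of all genes. Reversals concern genes with no call. Chac1 came to 0.17 after quantile normalization, 0.0023 without wild-type replicate 2, 0.13 without knockout replicate 2 and 0.50 without wild-type replicates 2 and 3. Atf5 came to -0.053 without wild-type replicate 3, -0.024 without knockout replicate 3 and -0.11 without wild-type replicates 2 and 3. Eif2b2 came to -0.0056 after quantile normalization. With 1 library left out, Atf5 ranged from -0.053 to 0.27 and Chac1 from -0.65 to 0.13. The cause was not tested. Quantile normalization moved the median of all genes to 0.10. With the replicate block 3 stress genes were higher and 2 lower, and 3726 and 3626 of all genes; deviations of libraries with the same number correlated at -0.0037, 0.021 and -0.17, so the numbers are not taken to pair them. Trib3 was read 16 to 72 times per library; the part of depth in its lost calls was not tested.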
